A study of Mus musculus with 10 samples.

Results

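The interferon-stimulated genes described here are 35 mouse genes known to respond to interferons. A gene was measured where the platform annotation tied a probe set to its symbol alone, and the probe set with the highest mean over all arrays stood for the gene. This left 33 of the 35 genes, among 19937 genes tested in all. Irgm2 and Igtp share a probe set that carries both symbols and were not analysed here.

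Interferons are secreted proteins that cells release on sensing viral nucleic acid. Type I interferons bind the receptor chains encoded by Ifnar1 and Ifnar2, and receptor-bound JAK kinases then phosphorylate STAT2. With IRF9 it enters the complex ISGF3, which binds the interferon-stimulated response element in the promoters of antiviral genes; the response to type II interferon uses the gamma-activated site. Many of these genes are also transcribed at a low basal level without added interferon. Pax5 is the transcription factor that sets B-cell identity and is shut off when B cells become plasma cells.

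All 10 arrays came from J558, an established mouse myeloma line, which is a malignant plasma-cell line. Every culture had been transduced with the retroviral vector MSCV-PIG, which gives puromycin resistance and green fluorescent protein. In 3 cultures the vector carried no Pax5 (empty vector), in 3 it carried Pax5 WT, and in 4 it carried Pax5 G183S, a form of Pax5 with serine in place of glycine; the series title links germline PAX5 changes to susceptibility to pre-B cell leukaemia. Cells were under puromycin for 5 to 7 days and were then sorted for fluorescence from the vector and for IgM, so each group holds only cells that passed that sort. No interferon or virus treatment is named in the labels. The labels call the replicates biological and independent, but all are of 1 cell line, and p-values measure the spread between these cultures. Expression values are log2 intensities from whole-transcript arrays, so a difference of 1 is a doubling of intensity.

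Pax5 itself read 7.10, 6.84 and 7.01 with empty vector, 10.67, 10.09 and 10.05 with Pax5 WT, and 10.22, 10.36, 9.38 and 9.96 with Pax5 G183S. Every array labelled with Pax5 thus read above every empty-vector array, but this level does not tell Pax5 WT from Pax5 G183S. Arrays correlated at 0.985 to 0.998 within groups and 0.978 to 0.995 between groups. Pax5 G183S replicate 1 correlated at 0.994, 0.995 and 0.991 with Pax5 WT replicates 1, 2 and 3. With Pax5 G183S replicates 2, 3 and 4 it correlated less, at 0.988, 0.985 and 0.988. The reason was not tested. Pax5 WT replicate 1 and Pax5 G183S replicate 1 lay farthest out on the leading principal component, which held 42.2% of the variance. The 7 measured plasma-cell markers averaged 11.58 to 11.77 per array with empty vector, 11.35 to 11.80 with Pax5 WT and 10.80 to 11.77 with Pax5 G183S. Among other cell types, the 6 T-cell markers averaged 7.34 to 7.65 per array with empty vector, 6.77 to 7.13 with Pax5 WT and 6.84 to 7.08 with Pax5 G183S, and the 6 stromal and endothelial markers averaged 6.85 to 6.96, 7.17 to 7.22 and 6.95 to 7.12. In the same order of groups, the 8 myeloid markers averaged 5.89 to 6.12, 5.67 to 5.88 and 5.71 to 6.25, and the 4 plasmacytoid dendritic cell markers 7.62 to 7.70, 7.37 to 7.76 and 7.62 to 7.74. Pax5 WT arrays thus lay below all empty-vector arrays for the T-cell and myeloid averages and above them for the stromal and endothelial average. Few genes set these averages. Between Pax5 WT and empty vector, Cdh5 differed by 1.34 and the other stromal and endothelial markers by 0.04 to 0.11. Adgre1 and Mpo each differed by -0.95 and the other myeloid markers by -0.10 to 0.19. Cd4, Cd3g and Cd28 differed by -1.39, -1.09 and -0.47, and the other T-cell markers by 0.03 to 0.11. The part that these markers play in the results below was not tested. In bulk RNA, fewer cells that express a gene and less RNA per cell cannot be told apart.

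RefSeq promoter windows, which run from 250 bases before to 50 bases after each gene start on build GRCm38.p6, were found for 25 of the 33 measured genes. The core of the interferon-stimulated response element, GAAANNGAA searched on both strands, occurred in 17 of these 25 windows (68%), against 9.76% of the 27025 genes with a window. The gamma-activated site core, TTCNNNGAA, whose pattern reads the same on both strands, occurred in 6 of 25 (24%) against 9.55% of all genes. The 2 patterns could overlap in a window and were counted separately. Such matches are a description of these letters and not of binding. The 250 bases before the start are shown for 5 genes that hold the response element core there, in order of their unadjusted p for Pax5 WT against empty vector; capitals mark the core, which reads TTCNNTTTC where the match is on the opposite strand. Trim21 would have come before Stat2 in that order, but its matches lie after the start, in bases not shown.
Adar, chr3:89730468-89730717, plus strand: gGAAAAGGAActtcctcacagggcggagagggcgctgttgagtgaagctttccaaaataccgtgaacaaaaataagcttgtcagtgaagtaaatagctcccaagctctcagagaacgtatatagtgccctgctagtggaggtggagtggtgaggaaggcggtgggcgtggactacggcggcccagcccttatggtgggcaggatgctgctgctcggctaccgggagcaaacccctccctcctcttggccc
Stat2, chr10:128270248-128270497, plus strand: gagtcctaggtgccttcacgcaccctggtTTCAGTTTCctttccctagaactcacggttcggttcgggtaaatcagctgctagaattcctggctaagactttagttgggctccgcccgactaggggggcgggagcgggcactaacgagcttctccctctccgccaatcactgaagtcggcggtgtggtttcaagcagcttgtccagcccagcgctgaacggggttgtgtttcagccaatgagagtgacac
Trim25, chr11:88999153-88999402, plus strand: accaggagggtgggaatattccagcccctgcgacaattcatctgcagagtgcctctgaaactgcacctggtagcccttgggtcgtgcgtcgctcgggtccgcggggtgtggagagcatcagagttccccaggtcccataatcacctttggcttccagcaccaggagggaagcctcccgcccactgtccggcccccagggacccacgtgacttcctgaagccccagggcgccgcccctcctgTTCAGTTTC
Ifit3, chr19:34583279-34583528, plus strand: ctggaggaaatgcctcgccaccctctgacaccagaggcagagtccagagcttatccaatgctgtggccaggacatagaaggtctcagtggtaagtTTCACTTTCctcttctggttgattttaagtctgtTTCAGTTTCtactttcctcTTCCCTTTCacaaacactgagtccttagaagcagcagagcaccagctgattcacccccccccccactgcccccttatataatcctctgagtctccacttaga
Ifih1, chr2:62646256-62646505, minus strand: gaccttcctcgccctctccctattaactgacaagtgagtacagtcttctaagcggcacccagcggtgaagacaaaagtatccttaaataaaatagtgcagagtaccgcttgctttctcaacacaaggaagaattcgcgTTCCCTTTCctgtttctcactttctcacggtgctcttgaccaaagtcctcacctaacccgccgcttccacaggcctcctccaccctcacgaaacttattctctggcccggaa

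In Adar the core lies 249 to 241 bases before the start, in Stat2 221 to 213, in Trim25 9 to 1 and in Ifih1 112 to 104. The windows of Adar and Ifih1 also each hold a further core after the start, in bases not shown. Ifit3 holds 3 copies, the nearest of them 102 to 94 bases before the start. The 17 genes with the core had a median log2 difference of -0.02 between Pax5 WT and empty vector, and the 8 genes with a window but without the core had -0.54. For Pax5 G183S against empty vector the medians were -0.08 and -0.42. In both comparisons the lower median was that of the genes without the core; the difference between these medians was not tested.

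Compared with empty vector, most interferon-stimulated genes read lower with Pax5 WT, but none passed the test. The lower readings were spread over ISGF3 subunits (Stat2, Irf9), an RNA sensor (Ifih1), the RNA editor Adar, antiviral effectors (Mx1, Xaf1) and 6 of the 7 ubiquitin, ISG15 and ADP-ribose genes. Oasl1 and Irgm1 went the other way, with every Pax5 WT array above every empty-vector array. In limma's fit over all 19937 genes, 0 of the 33 genes passed an adjusted p of 0.05 (Benjamini-Hochberg), while 1.88% of all genes did. At an unadjusted p under 0.05 there were 13 lower, against 8.55% of all genes, and 1 higher, against 7.38%. The smallest adjusted p was 0.0676, for Ifi35. The median difference was -0.29 against 0.01 over all genes, and 23 of 33 were below 0, against 46.1% of all genes. Pax5 WT and empty-vector arrays did not overlap for 14 genes that were lower and 2 that were higher; over all genes the shares were 12.5% and 11.5%. With array weights in the fit, which gave Pax5 WT replicates 1 and 3 weights of 0.453 and 0.565 and replicate 2 a weight of 3.48, 8 genes passed, all lower, where 7.33% of all genes passed as lower and 5.59% as higher. They were Adar, Ifi35, Irf9, Parp14, Stat2, Trim21, Trim25 and Xaf1.

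Pax5 G183S showed a smaller and more mixed shift against the same 3 empty-vector arrays. Again 0 of 33 genes passed (0.311% of all genes did), with 5 lower and 3 higher at an unadjusted p under 0.05 (6.18% and 5.12% of all genes). The median was -0.12 against -0.003 over all genes, and 23 of 33 were below 0, against 51.2% of all genes. Leaving out Pax5 G183S replicate 2 gave a median of -0.07, and leaving out empty vector replicate 3 gave -0.19. Arrays did not overlap for 5 genes lower (Irf9, Irf7, Mx1, Trim25 and Ifi35), against 6.56% of all genes, and for 3 higher (Eif2ak2, Oasl1 and Irgm1), against 5.02%. With array weights 7 genes passed, against 7.27% of all genes: Ifi35, Irf7, Mx1, Trim25 and Xaf1, lower, and Eif2ak2 and Irgm1, higher. Without replicate 1 of both Pax5 groups 4 passed, against 4.46% of all genes: Ifi35, Irf7 and Trim25, lower, and Irgm1, higher. With each array centred on its own median the counts without overlap became 9 lower, against 8.73% of all genes, and 2 higher, against 2.97%. Since both comparisons use the same empty-vector arrays, they are not independent of each other.

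Set directly against each other, Pax5 G183S and Pax5 WT were not separated by any of the 33 genes at an adjusted p of 0.05, and 0.0% of all genes passed. At an unadjusted p under 0.05, Parp14, Dhx58 and Eif2ak2 were higher with Pax5 G183S, against 5.08% of all genes, and 0 were lower, against 4.41%. The median difference, Pax5 G183S minus Pax5 WT, was 0.14, against -0.02 over all genes. Of the 33 genes 22 were above 0, while 56.5% of all genes were below 0. That median rested on Pax5 WT replicate 1: without it, the median was 0.03. Without Pax5 G183S replicate 3 it was 0.09. Arrays did not overlap for 3 genes higher with Pax5 G183S (Eif2ak2, Adar and Samd9l), against 2.33% of all genes, and for Irf7, which was lower, against 4.17%.

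**Figure D1:**
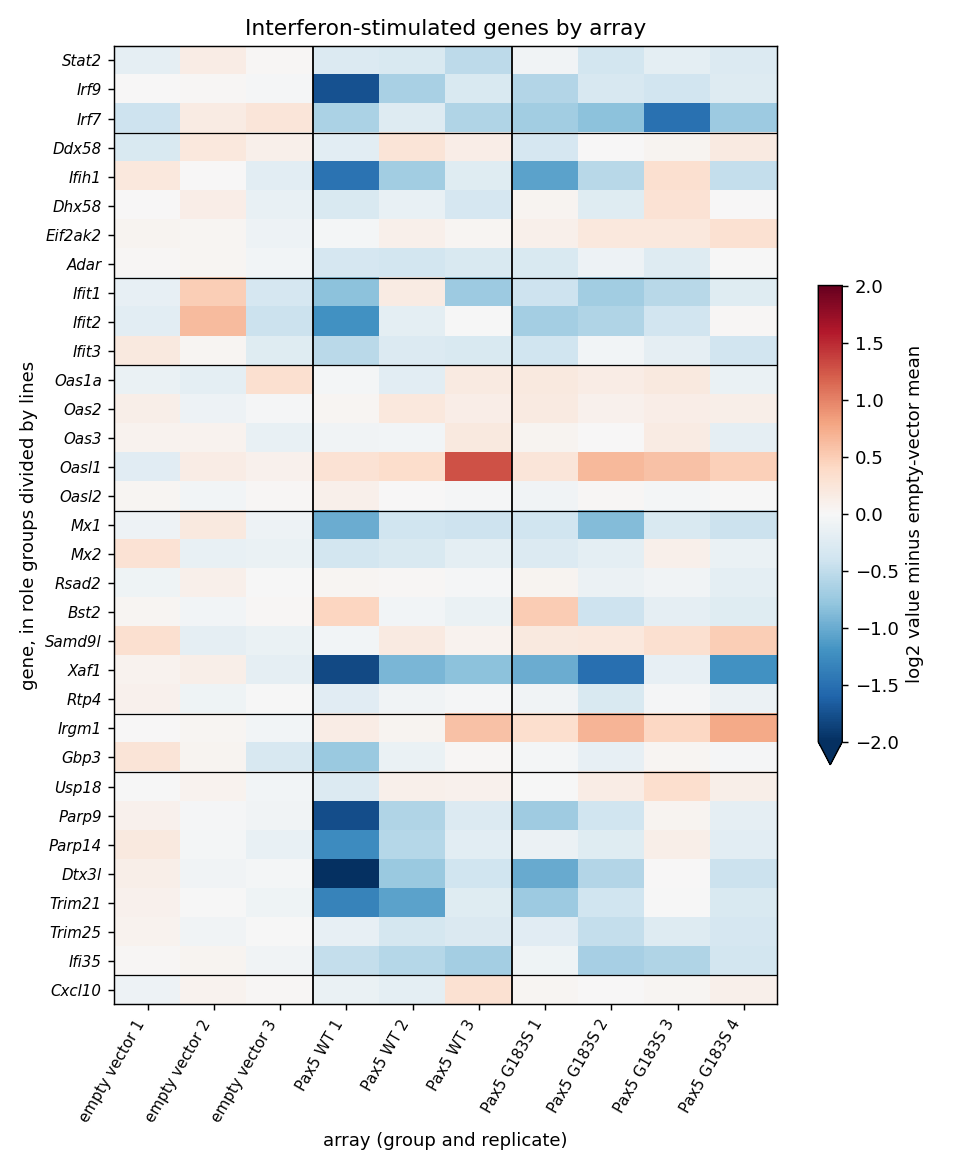
Colour gives the log2 value of each of the 33 genes (rows, in role groups) on each of the 10 arrays (columns) minus the mean of the 3 empty-vector arrays; blue is lower and red is higher, and values beyond -2 take the darkest blue. The darkest column is Pax5 WT replicate 1, where Dtx3l reads 7.46 against an empty-vector mean of 10.26, and the oligoadenylate synthetase rows stay pale apart from Oasl1.

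The signalling factors come at the head of the pathway. Stat2 (probe set 10367224), the STAT that ISGF3 formation requires, read 8.74, 9.08 and 8.95 with empty vector, 8.64, 8.62 and 8.40 with Pax5 WT, and 8.85, 8.56, 8.73 and 8.64 with Pax5 G183S. Its 3 Pax5 WT arrays lay below all empty-vector arrays, while the highest Pax5 G183S array lay above the lowest empty-vector array. The differences from empty vector were -0.37 ± 0.11 (SE, limma adjusted p = 0.130) for Pax5 WT and -0.23 ± 0.10 (adjusted p = 0.451) for Pax5 G183S.

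Irf9 (probe set 10415319), the DNA-binding subunit of ISGF3, read 10.13, 10.13 and 10.09 with empty vector, 8.38, 9.46 and 9.81 with Pax5 WT, and 9.54, 9.79, 9.74 and 9.86 with Pax5 G183S. All 7 arrays with Pax5 lay below the 3 empty-vector arrays, which were close together. Pax5 WT replicate 1 was more than 1 log2 unit below the other Pax5 WT arrays. The differences from empty vector were -0.90 ± 0.29 (limma adjusted p = 0.150) for Pax5 WT and -0.39 ± 0.27 (adjusted p = 0.692) for Pax5 G183S. Without Pax5 WT replicate 1 the Pax5 WT difference was -0.48 (adjusted p = 0.127), and with replicate 1 of both Pax5 groups left out it passed (adjusted p = 0.0397).

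Irf7 (probe set 10569102), which amplifies interferon production, read 9.11, 9.68 and 9.77 with empty vector, 8.88, 9.26 and 8.92 with Pax5 WT, and 8.82, 8.70, 8.03 and 8.79 with Pax5 G183S. It is the factor with the lower readings in Pax5 G183S: those 4 arrays lay below all 3 empty-vector and all 3 Pax5 WT arrays. The difference from empty vector was -0.93 ± 0.22 (limma adjusted p = 0.105) for Pax5 G183S and -0.50 ± 0.23 (adjusted p = 0.339) for Pax5 WT, whose arrays overlapped those with empty vector. Pax5 G183S minus Pax5 WT was -0.44 ± 0.22 (adjusted p = 0.543).

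Among RNA sensors and RNA-responsive enzymes the genes differed from one another. Adar (probe set 10493565) encodes the enzyme that edits adenosine to inosine in double-stranded RNA, and an interferon-inducible form of it is made from an upstream promoter. It read 9.94, 9.96 and 9.86 with empty vector, 9.59, 9.56 and 9.61 with Pax5 WT, and 9.61, 9.81, 9.67 and 9.91 with Pax5 G183S. The Pax5 WT arrays lay within 0.05 of each other, below every other array (the nearest, Pax5 G183S replicate 1, by 0.0032), and the Pax5 G183S arrays were spread between the other groups. The differences from empty vector were -0.33 ± 0.08 (limma adjusted p = 0.0821) for Pax5 WT and -0.17 ± 0.08 (adjusted p = 0.468) for Pax5 G183S. Without Pax5 G183S replicate 1 the Pax5 WT difference passed (adjusted p = 0.0380).

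Eif2ak2 (probe set 10452980) encodes PKR, the kinase that stops translation when it binds double-stranded RNA. It read 8.00, 7.98 and 7.83 with empty vector, 7.90, 8.03 and 7.97 with Pax5 WT, and 8.04, 8.14, 8.14 and 8.24 with Pax5 G183S. Here the 4 Pax5 G183S arrays lay above all others, by as little as 0.01. The differences were small: 0.20 ± 0.07 (limma adjusted p = 0.267) for Pax5 G183S against empty vector, 0.17 ± 0.07 (adjusted p = 0.508) against Pax5 WT, and 0.03 ± 0.08 (adjusted p = 0.882) for Pax5 WT against empty vector, where the sign turned when arrays were centred (-0.0026).

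Dhx58 (probe set 10391207) encodes LGP2, a sensor that modulates signalling by the other cytoplasmic RNA sensors. It read 7.37, 7.49 and 7.21 with empty vector, 7.05, 7.22 and 7.02 with Pax5 WT, and 7.41, 7.12, 7.65 and 7.36 with Pax5 G183S. Pax5 WT arrays were mostly the low ones, but each pair of groups overlapped. Pax5 G183S minus Pax5 WT was 0.29 ± 0.12 (limma adjusted p = 0.509), and Pax5 WT minus empty vector was -0.26 ± 0.13 (adjusted p = 0.358).

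Ifih1 encodes MDA5, a sensor of long double-stranded RNA. It read 7.37 to 7.78 with empty vector, 6.09 to 7.33 with Pax5 WT and 6.51 to 7.89 with Pax5 G183S. Its mean over all arrays, 7.15, lay below 7.23, the median level of all genes. Its Pax5 WT arrays were all lower, with a difference of -0.81 ± 0.36 (limma adjusted p = 0.308; -0.47 without Pax5 WT replicate 1), and its Pax5 G183S arrays overlapped those with empty vector. Ddx58, which encodes RIG-I, the sensor of RNA with 5' triphosphate ends, overlapped in all 3 groups, with differences of 0.06 ± 0.18 and -0.02 ± 0.16 (adjusted p = 0.912 and 0.986).

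The Ifit family, whose proteins bind viral RNA that lacks the host cap, read below the empty-vector mean in both Pax5 groups, with overlap in most cases. For Pax5 WT the differences were -0.47 ± 0.28 for Ifit1, -0.47 ± 0.35 for Ifit2 and -0.37 ± 0.13 for Ifit3, and for Pax5 G183S -0.48 ± 0.26, -0.41 ± 0.33 and -0.25 ± 0.12. Ifit3 with Pax5 WT was the only one of these 6 without overlap between arrays, and the smallest limma adjusted p was 0.207. All 3 genes lay below 7.23, the median level of all genes, where a probe set reports a change less well.

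The oligoadenylate synthetases make the messenger that activates RNase L; the like-named Oasl proteins of the list do not all share that activity. Oas1a, Oas2, Oas3 and Oasl2 had differences between -0.02 and 0.13 in both comparisons with empty vector, and each of them overlapped between groups. Each of them also lay below 7.23, the median level of all genes, where a probe set reports a change less well. Oas1a has close paralogues in the mouse, and whether its probes also take up their RNA was not tested. Oasl1, which restrains translation of Irf7 messenger RNA, stood out: it read 7.55, 7.92 and 7.86 with empty vector, 8.07, 8.13 and 9.04 with Pax5 WT, and 8.01, 8.42, 8.36 and 8.24 with Pax5 G183S. Every array with Pax5 was above every empty-vector array. The differences were 0.64 ± 0.23 (limma adjusted p = 0.215) for Pax5 WT and 0.49 ± 0.22 (adjusted p = 0.446) for Pax5 G183S. The value 9.04 is Pax5 WT replicate 3, without which the Pax5 WT difference was 0.32.

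Antiviral effectors were divided. Xaf1 (probe set 10378068), a partner of the apoptosis inhibitor XIAP, read 7.80, 7.84 and 7.55 with empty vector, 5.93, 6.82 and 6.92 with Pax5 WT, and 6.74, 6.22, 7.56 and 6.53 with Pax5 G183S. All Pax5 WT arrays were lower than the empty-vector arrays; among the Pax5 G183S arrays 3 were lower and replicate 3 lay at the level of the lowest empty-vector array. The differences were -1.18 ± 0.34 (limma adjusted p = 0.117) for Pax5 WT and -0.97 ± 0.31 (adjusted p = 0.235) for Pax5 G183S.

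Mx1, a GTPase that blocks influenza virus, read 7.04 to 7.35 with empty vector, 6.16 to 6.75 with Pax5 WT and 6.27 to 6.85 with Pax5 G183S. All arrays with Pax5 were below all empty-vector arrays, and the differences were -0.60 ± 0.19 (limma adjusted p = 0.143) and -0.50 ± 0.18 (adjusted p = 0.277). Mx2 differed by -0.29 ± 0.13 with Pax5 WT and -0.12 ± 0.12 with Pax5 G183S. The other effectors had small differences from empty vector: Rsad2 (viperin), Bst2 (tetherin), Rtp4 and Samd9l lay between -0.11 and 0.08 for Pax5 WT and between -0.13 and 0.30 for Pax5 G183S. The levels of Xaf1, Mx1, Mx2, Rsad2, Rtp4 and Samd9l were all below the median level of all genes. Bst2 read 9.52 and 9.59 on replicate 1 of Pax5 WT and of Pax5 G183S and at most 9.12 on all other arrays.

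Irgm1 (probe set 10385500), a GTPase that regulates autophagy and defence against intracellular microbes, was, with Oasl1, above empty vector without overlap in both groups. It read 9.59, 9.62 and 9.51 with empty vector, 9.72, 9.63 and 10.16 with Pax5 WT, and 9.91, 10.26, 9.99 and 10.32 with Pax5 G183S. All 7 Pax5 arrays were higher, though Pax5 WT replicate 2 exceeded the highest empty-vector array by only 0.01. The differences were 0.55 ± 0.14 (limma adjusted p = 0.129) for Pax5 G183S and 0.26 ± 0.15 (adjusted p = 0.436) for Pax5 WT. Without Pax5 WT replicate 3 the Pax5 WT difference was 0.10. Gbp3, a guanylate-binding protein gene, overlapped between groups in both comparisons (-0.29 ± 0.19 and -0.05 ± 0.18). Its level was below the median level of all genes.

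**Figure D2:**
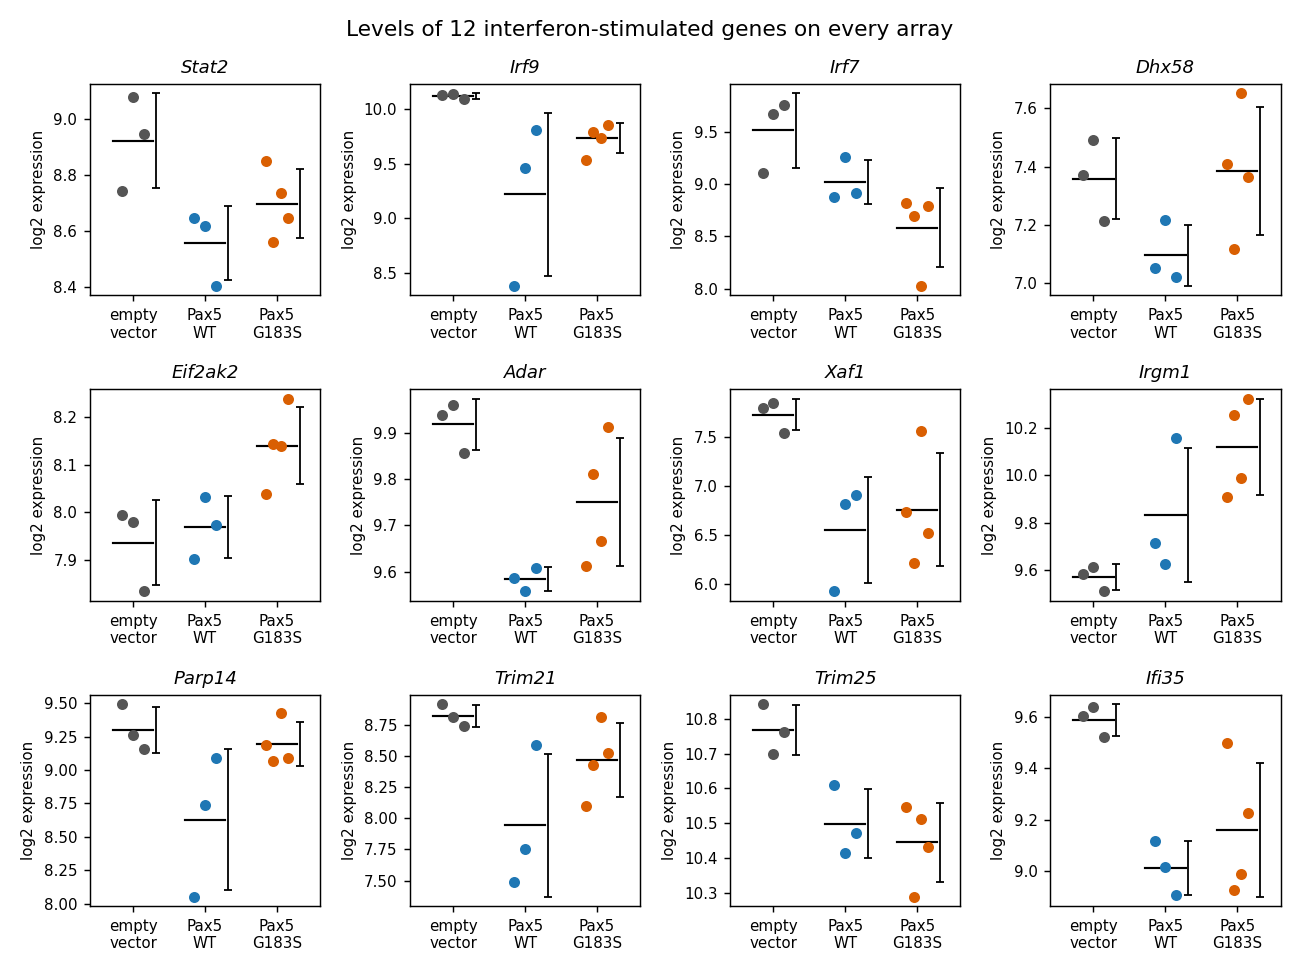
Each panel plots the log2 expression (vertical axis, own scale) of 1 gene on the 3 empty-vector, 3 Pax5 WT and 4 Pax5 G183S arrays; points are arrays, horizontal lines are group means and bars to their right are 1 SD. Adar and Ifi35 show tight low Pax5 WT arrays, Irf7 is lowest in Pax5 G183S, and Irgm1 is above empty vector in both Pax5 groups.

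The ubiquitin, ISG15 and ADP-ribose enzymes and adaptors come next. Of these 7 genes, 6 were lower without overlap with Pax5 WT (12.5% of all genes) and 2 with Pax5 G183S (6.56% of all genes). Of the 7, 0 passed the test in either comparison (1.88% and 0.311% of all genes did). The median difference of the 7 genes was -0.68 for Pax5 WT and -0.32 for Pax5 G183S. Parp9, Dtx3l and Parp14 form a functional set: DTX3L is an E3 ubiquitin ligase that pairs with the ADP-ribosyltransferase PARP9, and PARP14 is a related mono-ADP-ribosyltransferase. The mean over the 7 genes was -1.15 on Pax5 WT replicate 1, against -0.54 and -0.29 on the other Pax5 WT arrays.

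Parp14 (probe set 10439249) read 9.49, 9.26 and 9.16 with empty vector, 8.05, 8.74 and 9.09 with Pax5 WT, and 9.19, 9.07, 9.43 and 9.09 with Pax5 G183S. Pax5 WT arrays lay below the empty-vector arrays, and Pax5 G183S arrays lay among them. Pax5 G183S minus Pax5 WT was 0.57 ± 0.21 (limma adjusted p = 0.503), and Pax5 WT minus empty vector was -0.68 ± 0.22 (adjusted p = 0.166). Without Pax5 WT replicate 1 these were 0.28 and -0.39.

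Parp9 read 9.73 to 9.90 with empty vector and 8.02, 9.20 and 9.53 with Pax5 WT, and Dtx3l read 10.18 to 10.38 and then 7.46, 9.51 and 9.86. Both followed the same order of Pax5 WT arrays as Irf9, with replicate 1 lowest. Dtx3l had the lowest difference of all 33 genes, -1.32 ± 0.52, but with an SD of 1.30 among its Pax5 WT arrays its limma adjusted p was 0.249. Parp9 differed by -0.88 ± 0.33 (adjusted p = 0.228). Without Pax5 WT replicate 1 the differences were -0.57 for Dtx3l and -0.43 for Parp9. With Pax5 G183S the ranges were 9.09 to 9.86 for Parp9 and 9.25 to 10.27 for Dtx3l, which overlapped empty vector.

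Trim21 (probe set 10566144) is an E3 ubiquitin ligase and a cytosolic antibody receptor. It read 8.91, 8.81 and 8.74 with empty vector, 7.49, 7.75 and 8.59 with Pax5 WT, and 8.10, 8.43, 8.81 and 8.52 with Pax5 G183S. Pax5 WT replicates 1 and 2 were more than 1 log2 unit below the empty-vector mean of 8.82 and replicate 3 was closer to it. The difference was -0.88 ± 0.26 (limma adjusted p = 0.125), and without Pax5 WT replicate 3 it was -1.20 and passed (adjusted p = 0.0281). For Pax5 G183S the difference was -0.36 ± 0.24 (adjusted p = 0.680).

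Trim25 (probe set 10380260), the ubiquitin ligase that acts with RIG-I, read 10.84, 10.70 and 10.76 with empty vector, 10.61, 10.42 and 10.47 with Pax5 WT, and 10.55, 10.29, 10.51 and 10.43 with Pax5 G183S. Its 7 Pax5 arrays lay below the empty-vector arrays. The differences were -0.27 ± 0.09 (limma adjusted p = 0.153) and -0.32 ± 0.08 (adjusted p = 0.122), and those of Pax5 G183S and Pax5 WT from each other were -0.05 ± 0.08.

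Ifi35 (probe set 10381408), which encodes a cytoplasmic partner of NMI, read 9.61, 9.64 and 9.52 with empty vector, 9.12, 9.01 and 8.90 with Pax5 WT, and 9.50, 8.93, 8.99 and 9.23 with Pax5 G183S. Every Pax5 array was below empty vector, though Pax5 G183S replicate 1 by only 0.02. The differences were -0.58 ± 0.14 (limma adjusted p = 0.0676) for Pax5 WT and -0.43 ± 0.13 (adjusted p = 0.186) for Pax5 G183S. Ifi35 passed in both comparisons when Pax5 G183S replicate 1 was left out (adjusted p = 0.0118 and 0.0303), and for Pax5 WT when only those 2 groups were fitted (adjusted p = 0.0214). Usp18, the protease that removes ISG15 and dampens the receptor, overlapped in all groups (-0.03 ± 0.11 and 0.15 ± 0.11), as did the chemokine gene Cxcl10 (-0.01 ± 0.12 and 0.05 ± 0.11). Both Usp18 and Cxcl10 lay below the median level of all genes.

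**Figure D3:**
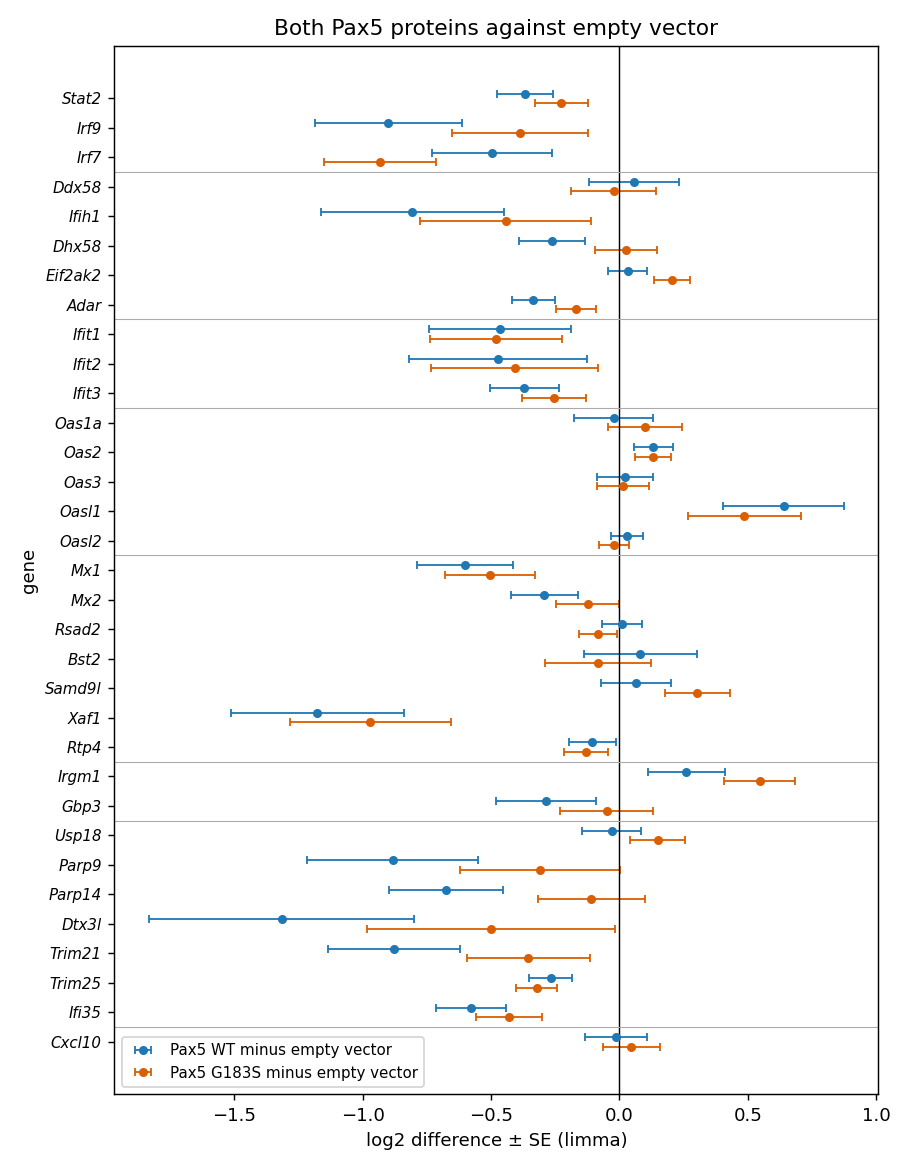
Points give the log2 difference from empty vector for each of the 33 genes (vertical axis, in role groups) with Pax5 WT in blue and Pax5 G183S in orange, and bars are limma's standard errors. The lowest point is at -1.32 for Dtx3l with Pax5 WT, and Oasl1 and Irgm1 lie right of 0 in both colours.

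Averaged over all 33 genes as the difference from the empty-vector mean, the score per array was 0.01, 0.06 and -0.07 with empty vector, -0.58, -0.23 and -0.12 with Pax5 WT, and -0.22, -0.24, -0.05 and -0.13 with Pax5 G183S. All 3 Pax5 WT arrays and 3 of the 4 Pax5 G183S arrays lay below the empty-vector range; Pax5 G183S replicate 3 lay inside it. Group means were -0.31 ± 0.24 (SD, n = 3) for Pax5 WT and -0.16 ± 0.09 (SD, n = 4) for Pax5 G183S. The Pax5 groups overlapped, and the SD of Pax5 WT was set mainly by replicate 1, which was the lowest Pax5 WT array for 22 of the 33 genes. Over all genes the same score lay between -0.02 and 0.01 on every array.

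The role groups did not move together on each array. Signalling factors were at -0.88, -0.41 and -0.48 with Pax5 WT and at -0.45, -0.50, -0.69 and -0.42 with Pax5 G183S, so every Pax5 array was low. The oligoadenylate synthetase family was at 0.07, 0.06 and 0.35 and at 0.12, 0.18, 0.21 and 0.06. In that family only Oasl1 was not below the median level of all genes. Ubiquitin and ADP-ribose genes were at -0.41, -0.37, -0.05 and -0.24 with Pax5 G183S. Of the 33 genes, 22, 17 and 18 read below the lowest empty-vector array on the 3 Pax5 WT arrays and 17, 20, 9 and 17 on the Pax5 G183S arrays, where the share of all genes was between 29.1% and 33.1% per array.

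**Figure D4:**
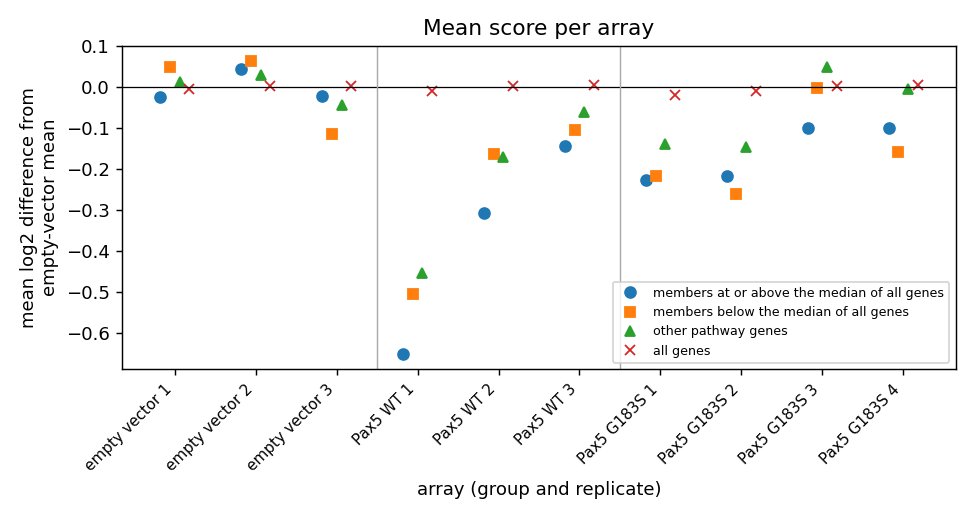
Mean log2 difference from the empty-vector mean (vertical axis) on each array (horizontal axis) for the 16 genes at or above the median level of all genes, the 17 below it, the 72 other pathway genes and all genes. The 2 level classes follow each other on the Pax5 arrays, lowest at -0.65 and -0.51 on Pax5 WT replicate 1, while all genes stay near 0.

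Upstream of these genes, no interferon ligand gene passed the test. Of 5 measured, 0 passed in limma's fit in either comparison with empty vector (1.88% and 0.311% of all genes did). At an unadjusted p under 0.05 in that fit, 1 was higher with Pax5 WT (Ifnl2, 0.24 ± 0.10), against 7.38% of all genes. With Pax5 G183S there were 0 (5.12% of all genes higher and 6.18% lower). In both, 0 were without overlap, against 12.5% and 6.56% of all genes lower and 11.5% and 5.02% higher. Ifnb1 read 4.95 to 5.21 with empty vector, 5.12 to 5.23 with Pax5 WT and 5.03 to 5.14 with Pax5 G183S. All but Ifnl2 lay below the median level of all genes, where a probe set reports a change less well. Ifnar1, a chain of the type I receptor, read 10.34, 10.60 and 10.56 with empty vector, 9.99, 10.29 and 10.17 with Pax5 WT, and 10.18, 10.12, 10.12 and 10.18 with Pax5 G183S. All arrays with Pax5 were lower, by -0.35 ± 0.09 (limma adjusted p = 0.0962) and -0.35 ± 0.09 (adjusted p = 0.121). Ifnar2, the other chain, read lower with overlap (-0.23 ± 0.13 and -0.33 ± 0.12).

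The further pathway list held 86 genes, of which 72 were measured. With Pax5 WT, 25 of the 72 were lower and 5 higher without overlap between arrays (12.5% and 11.5% of all genes), and Irf8 (higher) and Psmb9 (lower) passed the test (1.88% of all genes). With Pax5 G183S, 8 were lower and 2 higher without overlap (6.56% and 5.02% of all genes), and of the 72 only Irf8 passed (0.311% of all genes). Between Pax5 G183S and Pax5 WT 0 passed in limma (0.0% of all genes) and 0 were without overlap (4.17% of all genes lower and 2.33% higher). At an unadjusted p under 0.05, 9 were higher with Pax5 G183S and 0 lower (5.08% and 4.41% of all genes). The medians were -0.18, -0.06 and 0.09.

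Irf8 (probe set 10576034), an interferon regulatory factor of lymphoid and myeloid cells, rose in both Pax5 groups. It read 7.92, 8.07 and 7.91 with empty vector, 10.53, 10.08 and 10.17 with Pax5 WT, and 10.31, 9.99, 9.05 and 9.91 with Pax5 G183S. The differences were 2.29 ± 0.27 (limma adjusted p = 0.00767) and 1.85 ± 0.25 (adjusted p = 0.0171). Leaving out empty vector replicate 3 put the Pax5 WT difference above the threshold of 0.05 (adjusted p = 0.0572), and the Pax5 G183S difference lost its call without empty vector replicate 2 or 3 or Pax5 G183S replicate 2 or 4 (adjusted p up to 0.140).

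Psmb9 (probe set 10450145), a catalytic subunit of the immunoproteasome, fell with Pax5 WT. It read 10.06, 10.03 and 10.08 with empty vector, 9.55, 9.67 and 9.39 with Pax5 WT, and 9.92, 9.66, 9.92 and 9.77 with Pax5 G183S. The Pax5 WT difference was -0.52 ± 0.09 (limma adjusted p = 0.0290), and that of Pax5 G183S, also without overlap, was -0.24 ± 0.09 (adjusted p = 0.314). The call was lost without any 1 empty-vector array or Pax5 WT replicate 1 or 3 (adjusted p between 0.0602 and 0.124), and when every probe set of the table was tested (adjusted p = 0.0541).

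Its neighbour in antigen processing, the peptide transporter gene Tap1, read 11.08, 11.00 and 10.93 with empty vector, 9.15, 9.76 and 10.17 with Pax5 WT, and 9.69, 10.92, 11.06 and 10.96 with Pax5 G183S. The Pax5 WT arrays and Pax5 G183S replicate 1 were low, and the other Pax5 G183S arrays were at the empty-vector level. The Pax5 WT difference was -1.31 ± 0.35 (limma adjusted p = 0.0974), and it passed without Pax5 G183S replicate 1 (adjusted p = 0.0101). Trim30a, an interferon-induced regulator of NF-kB signalling, differed by -1.96 ± 0.55 (adjusted p = 0.113) with Pax5 WT and by -0.74 ± 0.52 (adjusted p = 0.701; -0.41 without Pax5 G183S replicate 2) with Pax5 G183S. Stat3, a STAT used by many cytokine receptors, differed by -0.32 ± 0.09 (adjusted p = 0.108) and -0.12 ± 0.08; the Pax5 WT difference passed without Pax5 WT replicate 3 (adjusted p = 0.0486).

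Other named pathway genes had small or overlapping differences. Pias1, a SUMO ligase, differed from empty vector by -0.28 ± 0.08 with Pax5 WT and by -0.18 ± 0.08 with Pax5 G183S. Uba7, the enzyme that activates ISG15, differed by -0.31 ± 0.09 and -0.19 ± 0.09. Both were lower without overlap in each comparison (12.5% and 6.56% of all genes). For Pax5 G183S minus Pax5 WT, Myd88, the adaptor of most Toll-like receptors, differed by 0.62 ± 0.19, Herc6, an ISG15 ligase, by 0.83 ± 0.33, Parp10 by 0.25 ± 0.09, Psmb9 by 0.28 ± 0.09, Tap1 by 0.97 ± 0.33 and Stat3 by 0.20 ± 0.08, with limma adjusted p between 0.484 and 0.508. Without Pax5 G183S replicate 1, Myd88 (adjusted p = 0.0205) and Tap1 (adjusted p = 0.0160) passed, where 5.58% of all genes did. None of these 6 was without overlap between Pax5 G183S and Pax5 WT.

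**Figure D5:**
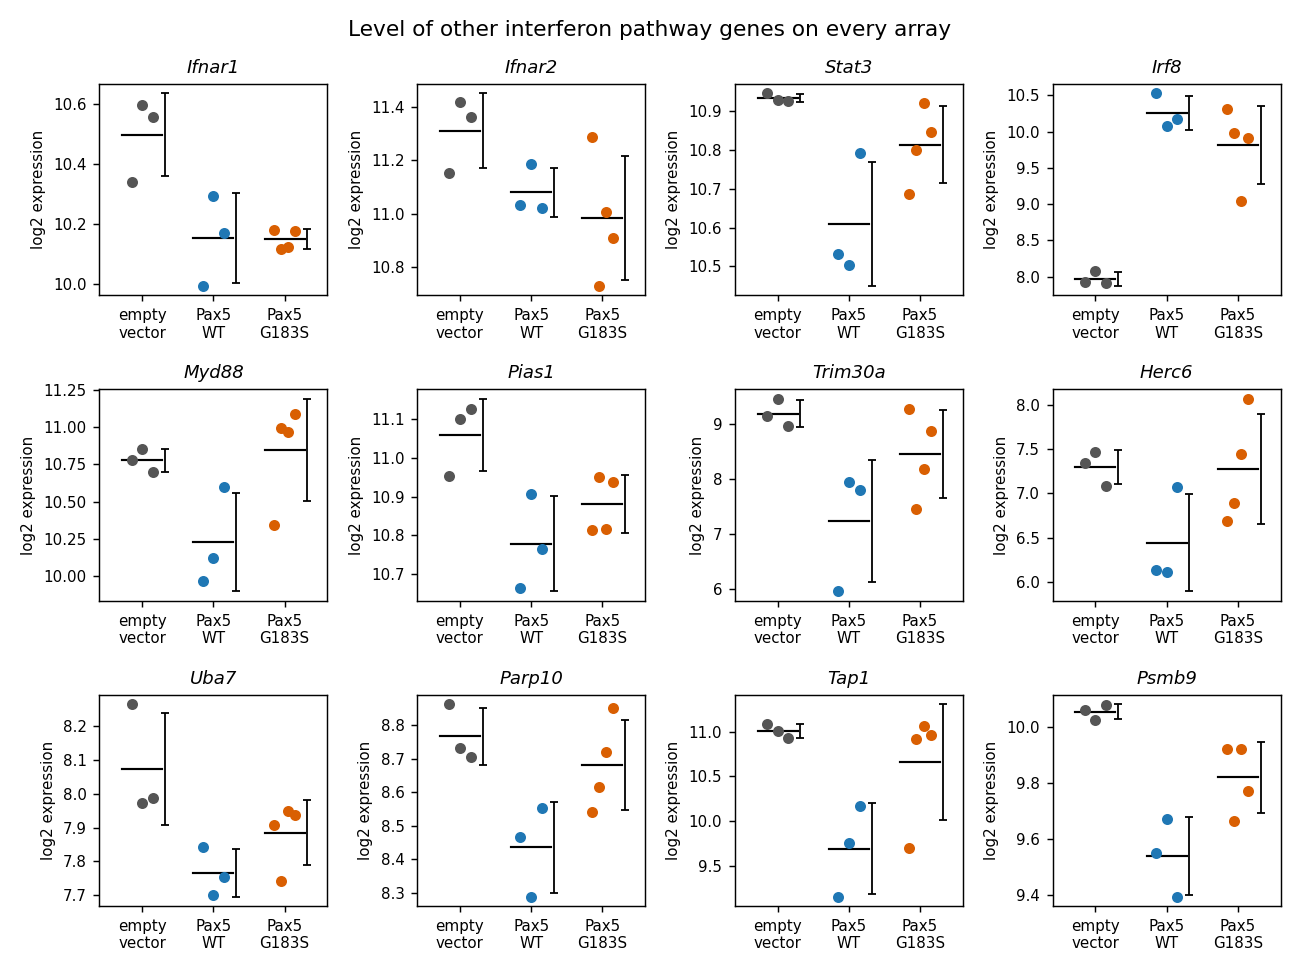
Each panel plots the log2 expression (vertical axis, own scale) of 1 other pathway gene on the 3 empty-vector, 3 Pax5 WT and 4 Pax5 G183S arrays; points are arrays, lines are group means and bars 1 SD. Irf8 is above empty vector in all 7 Pax5 arrays, Ifnar1 and Psmb9 are below it in all 7, and Tap1 with Pax5 G183S is low on replicate 1 alone.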

How the data were processed

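The authors deposited log2 expression per probe set. Per the labels' protocols, 100 ng of Trizol-extracted RNA was amplified with the Ambion WT kit. The submitters' processing notes name RMA and Partek without versions or roles. RMA brings the distributions of the arrays close together, which can hide a shift common to most genes, and it compresses low signals. The deposited medians over all probe sets still ran from 6.81 (empty vector replicate 2) to 6.94 (Pax5 G183S replicate 3). No scan batch was tested, since scanner files were not used here. Precision is limited by the number of arrays.

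Of 34760 probe sets, 21640 carried a single symbol in the platform annotation, 1321 several, and 11799 had no entry and are unnamed here. Of the single symbols, 21553 matched the RefSeq table of GRCm38.p6 and 0 were changed. Coordinates are those of the RefSeq promoters, and the build behind the array design is not given in the sources used here. All 10 arrays entered a single fit in limma 3.58.1 (R 4.3.3) over 19937 genes, with a coefficient per group, empirical Bayes (7 residual and 2.88 prior degrees of freedom), two-sided p-values and Benjamini-Hochberg adjustment over all genes. The fit was checked on simulated data. Figures were drawn in Python 3.11.15.

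The members, the role groups, the 86 further pathway genes and the marker lists were chosen with earlier results of these data known. Array values are given for the 5 members with the smallest p per comparison and for Stat2, Irf9 and Irf7, and up to 6 further pathway genes are named per comparison. Oasl1 was given in full after its values were seen. No p is given for the score.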

Additional observations from a re-analysis of the deposited data

Results flagged for a closer look

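The 4 Pax5 G183S arrays were tested for a single array far from the others, and groups of 3 were not tested. In all, 34 gene or score groups were tested; chance marks about 1 in 20. In 2 of them the gap to the nearest array, as a share of the whole range, exceeded Dixon's critical value. For Irf7 the share was 0.842: Pax5 G183S replicate 3 read 8.03 and the others 8.70 to 8.82. For Oas1a it was 0.854: replicate 4 read 6.85 and the others 7.13 to 7.18.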

How the results depend on the processing

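Single-gene results for 12 members in 3 comparisons, with Irf8 and Psmb9, were recomputed under other settings. Of these values, 657 kept their direction and side of the threshold, and 22 passed only under the alternative (17 of them with array weights). Another 13 lost their call (all Irf8 or Psmb9) and 10 changed sign. Several settings leave a difference unchanged: the intensity trend, only the 2 groups, every probe set tested, or an array of the third group left out. There only the side of the threshold could move, so the 657 partly hold values whose direction was fixed. With array weights, members called against empty vector numbered 8 for Pax5 WT and 7 for Pax5 G183S (12.9% and 7.27% of all genes), and 3 for Pax5 G183S against Pax5 WT (Adar, Irgm1 and Trim21, higher; 13.8% of all genes, 8.3% higher). Fitting only the 2 groups called 1 for Pax5 WT (2.94% of all genes). Leaving out 1 array gave 0 to 2 for Pax5 WT (0.0301% to 5.18% of all genes) and 0 to 1 for Pax5 G183S (0.0401% to 1.48%). Without both arrays that stood apart, a setting chosen after seeing the data, 2 and 4 were called (3.46% and 4.46%). Genes without overlap ranged over 8 to 14 for Pax5 G183S against empty vector (14 without empty vector replicate 3, where 17% of all genes did not overlap, and 13 without Pax5 G183S replicate 3, 17.8%) and 4 to 10 against Pax5 WT (10 without Pax5 WT replicate 3, 16.7%; 8 without Pax5 G183S replicate 1, 24.5%; 8 without both, 34.3%). A smaller group separates more easily. Their median was 0.08 with array weights and without both.

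Sign changes were these. Eif2ak2 with Pax5 WT was -0.00261 with centred arrays and -0.0186 to 0.066 when 1 array was left out, below 0 without empty vector replicate 3. Dhx58 with Pax5 G183S was -0.0089 with centred arrays, -0.0306 with array weights and -0.0622 to 0.116 when 1 array was left out, below 0 without empty vector replicate 3 or Pax5 G183S replicate 3. For Pax5 G183S against Pax5 WT, Trim25 was -0.0961 to 0.000696, above 0 without Pax5 WT replicate 1, and Xaf1 was -0.17 with array weights and -0.11 to 0.388, below 0 without Pax5 WT replicate 1 or Pax5 G183S replicate 3. The cause of the changes with weights and centring was not tested.

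Correlations of deviations between same-numbered arrays of Pax5 G183S and Pax5 WT were 0.507, -0.162 and 0.455. For Pax5 WT and empty vector they were -0.0849, -0.0084 and -0.141, and for Pax5 G183S and empty vector -0.162, 0.108 and -0.16. Differently numbered arrays were not compared, so whether replicate numbers pair the arrays was not settled. With a replicate block 0 members were called in all 3 comparisons, where only 1.14%, 0.0502% and 0.01% of all genes were called. The medians of the members were -0.29, -0.12 and 0.14. In that limma fit Psmb9 with Pax5 WT (adjusted p = 0.0722) and Irf8 with Pax5 G183S (adjusted p = 0.0930) lost their calls. All 30 recomputed array scores stayed within the replicate spread, taken as the residual SD of 0.143 over arrays. Those from the mean of a gene's probe sets could not differ, since each measured member had 1 single-symbol probe set. Requiring a further A after the response element core left it in 56% of member windows against 3.99% of genes. Dim genes (17 of 33) limit what the arrays can show.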
